A study of Mus musculus with 5 samples.

Results

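The genes described are the matrix metalloproteinases (Mmp), the ADAMTS proteases (Adamts) and the tissue inhibitors of metalloproteinases (Timp) of mouse visceral fat. They were chosen by gene symbol alone, and 46 of the 78334 genes in the count table matched: 23 Mmp, 19 Adamts and 4 Timp genes. The table covers 5 RNA libraries of male C57BL/6 mice, all labelled visceral fat. The control (1 library) received standard chow and vehicle. The diabetes group (2 libraries) received streptozotocin at 2 days of age (70 mg/kg; this toxin destroys insulin-producing cells), then high-fat chow (60% of calories as fat) for 8 weeks starting at 3 weeks, and vehicle. The curcumin group (2 libraries) was treated like the diabetes group but received, in place of vehicle, curcumin (a polyphenol found in turmeric) by daily gavage for 28 days starting at 11 weeks, at 50 mg/kg. Nothing in the labels ties the libraries of 1 group to separate animals. The p-values therefore rest on the spread among these libraries, which may be technical, and the unreplicated control has no spread of its own.

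Matrix metalloproteinases and ADAMTS proteases are zinc enzymes that cut the proteins between cells. MMPs are made as inactive precursors, and between them they cut collagens, gelatin, elastin, fibronectin and laminins; ADAMTS proteases trim procollagen or cut large proteoglycans such as aggrecan and versican. TIMPs bind the active site of MMPs and, in the case of TIMP3, of some ADAMTS proteases as well. In fat, both families are known for the remodelling of the matrix around growing adipocytes, and macrophages and fibroblasts are known as major sources.

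The libraries differed in tissue markers more than the group labels describe. Levels are given as CPM, the counts of a gene per 1000000 counts of its library. Library totals lay between 25378046 and 42422890 counts. A list of 10 epididymal epithelium genes (the epididymis is the sperm duct along the gonadal fat) summed to 70967 CPM in control 1, 67831 CPM in diabetes 1, 107016 CPM in curcumin 2 and 6010 CPM in curcumin 1. Crisp1 alone held 5965 CPM of the sum in curcumin 1, more than in any other library. The other genes of the list were at 0.647 to 19.6 CPM in curcumin 1. In diabetes 2 the list summed to 0.118 CPM, with 8 of its 10 genes at 0. The 10 adipocyte genes summed to 23833 CPM in diabetes 2 and 3061 CPM in curcumin 1, against 118 to 478 CPM in the other libraries. The defining adipocyte genes Pparg and Retn were at 0 in diabetes 1. The 8 macrophage genes summed to 2712 CPM in diabetes 2 and to 139 to 324 CPM elsewhere, and the 8 smooth muscle genes to 43521 CPM in curcumin 1 and to 340 to 2481 CPM elsewhere. The part that these differences in tissue play in the protease values below was not tested. In bulk tissue, fewer cells of a type and less RNA per cell cannot be told apart.

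**Figure D1:**
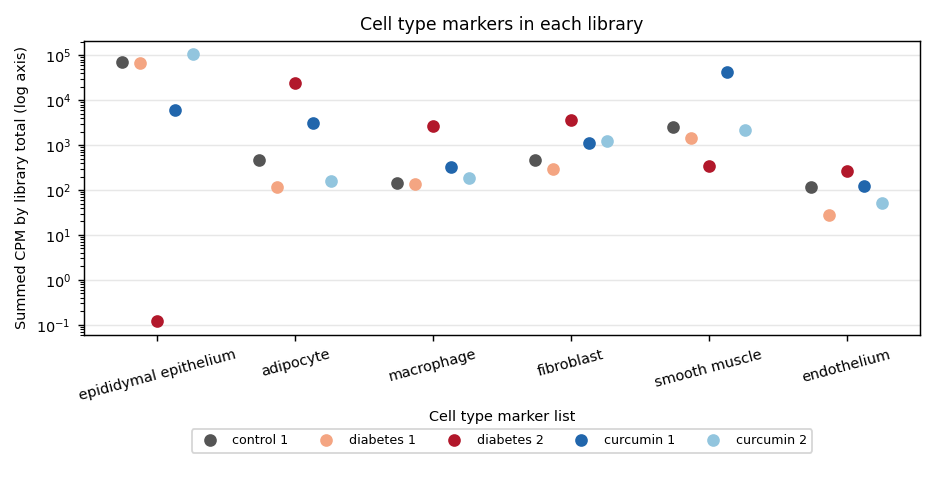
Summed CPM (library total, log axis) of 6 cell type marker lists in the 5 libraries, 1 point per library. The epididymal list is lowest in diabetes 2 at 0.118 CPM, the adipocyte and macrophage lists are highest in diabetes 2, and the smooth muscle list is highest in curcumin 1 at 43521 CPM.

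Of the Mmp genes, 10 lie next to each other on chromosome 9, from Mmp13 to Mmp7, with no other protein-coding gene between them in RefSeq's GRCm38.p6 annotation. These genes are shown first because most of their promoters share letters that the other promoters at hand lack, while Mmp7 and Mmp12, those with the most counts, were highest in different libraries. RefSeq promoter windows (250 bases before the start of transcription) were at hand for 32 of the 46 members, 10 of them in the cluster. The 14 members without a window include Mmp2, Mmp9, Mmp16, Mmp17, Mmp19, Adamts5 and Adamts8, so nothing is known here of their promoters. The AP-1 letters TGANTCA, bound by the Fos and Jun factors, were in a window of 8 of the 10 cluster genes and of 0 of the 22 others, against 6.75% of the 32851 windows in the table. The TATA box letters TATAAA were in 7 of the 10 and in 2 of the 22, against 12.4% of all windows. The GC box letters GGGCGG were in 0 of the 10 and in 16 of the 22, against 32.7% of all windows. All were searched on both strands. A match describes the letters and not a bound site. Shown are the last 130 bases before the start for 3 cluster genes and for Mmp14, the MMP outside the cluster with the highest CPM per kilobase of exon in control 1, all on the plus strand in GRCm38.p6, with AP-1, TATA box and GC box letters in capitals. In Mmp14 the 2 GC box matches lie end to end, and no match shown overlaps one of another motif.
Mmp7, chr9:7691960-7692089: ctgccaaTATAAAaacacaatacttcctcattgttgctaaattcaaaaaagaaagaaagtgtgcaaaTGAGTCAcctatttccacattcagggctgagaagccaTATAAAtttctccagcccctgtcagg
Mmp12, chr9:7347244-7347373: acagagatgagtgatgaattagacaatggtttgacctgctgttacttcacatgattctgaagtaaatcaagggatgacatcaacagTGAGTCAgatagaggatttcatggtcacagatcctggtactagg
Mmp3, chr9:7445692-7445821: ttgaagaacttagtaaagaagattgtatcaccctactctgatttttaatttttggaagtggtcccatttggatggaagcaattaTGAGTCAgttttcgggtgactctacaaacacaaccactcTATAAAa
Mmp14, chr14:54431468-54431597: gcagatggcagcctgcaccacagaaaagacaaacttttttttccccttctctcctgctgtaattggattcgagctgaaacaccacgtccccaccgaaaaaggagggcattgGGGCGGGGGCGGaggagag

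The AP-1 letters end 56 bases before the start in Mmp7, 37 in Mmp12 and 39 in Mmp3. Mmp12 has a further RefSeq start 2977 bases upstream, whose window holds none of these letters, and Mmp7 a further start 251 bases downstream, likewise without them.

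Mmp7, or matrilysin, a small MMP of glandular epithelium that lacks the hemopexin domain, was high in 3 libraries and nearly absent from the others. It was at 34.0 CPM in control 1 (920 counts), 36.5 CPM in diabetes 1, 38.8 CPM in curcumin 2, 0.288 CPM in curcumin 1 (8 counts) and 0.0394 CPM in diabetes 2 (1 count). The 3 libraries with high Mmp7 belong to 3 different groups, and each diabetic or treated pair holds 1 high and 1 low library. Between the 3 high libraries, the highest value was 1.14 times the lowest. The same 3 libraries had the highest epididymal marker sums, and the part of that tissue in the Mmp7 values was not tested.

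Mmp12, the macrophage elastase, lies in the same cluster and was highest where Mmp7 was lowest. It stood at 402 CPM in diabetes 2 (10197 counts), 34.9 CPM in curcumin 1 and 1.32 CPM in curcumin 2, against 0.703 CPM in control 1 and 0.629 CPM in diabetes 1 (16 counts). The 2 diabetic libraries lay on both sides of the control and of both treated libraries, 639-fold apart. Over the cluster, summed levels were 417 CPM in diabetes 2 and 35.4 to 40.4 CPM in the other libraries. Mmp12 made up most of the first sum, and Mmp7 led the sum in control 1, diabetes 1 and curcumin 2.

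**Figure D2:**
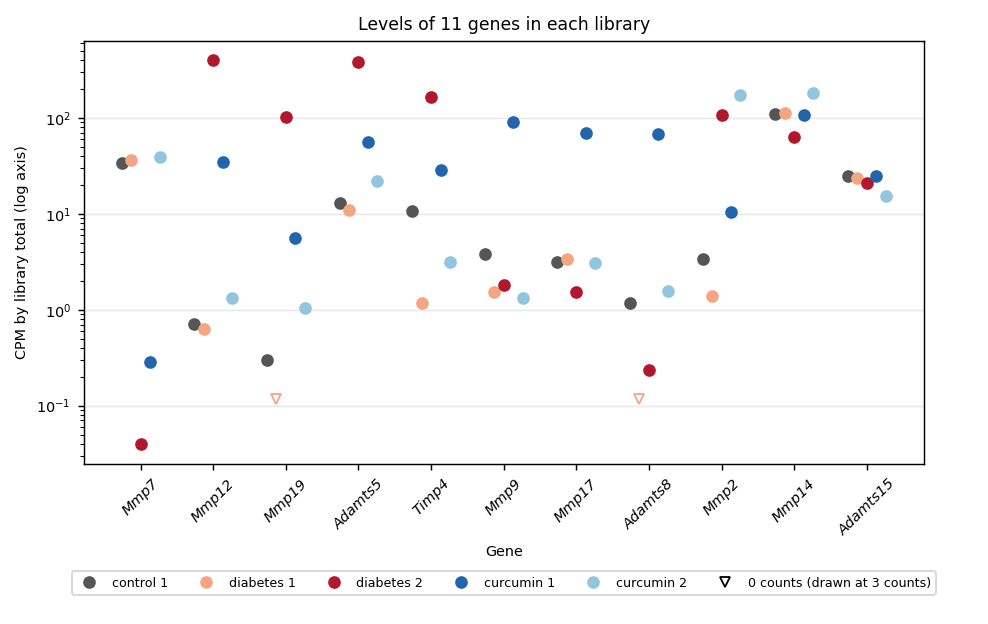
CPM (library total, log axis) of 11 genes in each of the 5 libraries, 1 point per library, with 0 counts drawn as open triangles at the level of 3 counts. Mmp7 is between 34.0 and 38.8 CPM in 3 libraries of different groups, Mmp12 reaches 402 CPM in diabetes 2, and Adamts15 stays between 15.3 and 25 CPM.

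The other cluster genes were low. Mmp3 (stromelysin-1, which can activate other MMPs) was at 11.5 CPM in diabetes 2, 2.37 CPM in curcumin 1 and 0.118 CPM in curcumin 2 (5 counts), with 0 counts in control 1 and diabetes 1. Counting error alone leaves room for 3 counts behind a 0, which is 0.118 CPM in diabetes 1 and 0.111 CPM in control 1. The collagenase Mmp13 held 36 counts in diabetes 2, 16 in curcumin 1 and 7 in curcumin 2, and Mmp27 held 42 in diabetes 2 and 4 in curcumin 1; both were at 0 in control 1 and diabetes 1. The neutrophil collagenase Mmp8 had at most 15 counts in any library, and Mmp10 at most 12. Mmp1a had 15 counts in control 1 and 0 elsewhere, Mmp1b 2 counts in curcumin 2, and the enamel protease Mmp20 7 counts in curcumin 1. Mmp1a and Mmp1b, and Mmp3 and Mmp10, are close paralogs, and Mmp1b and Mmp12 overlap in exons on opposite strands, so reads of these genes may be shared.

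The gelatinases Mmp2 and Mmp9, which cut denatured collagen and basement membrane collagen, did not share a pattern. Mmp2, known as a product of fibroblasts and other stromal cells, was at 172 CPM in curcumin 2 (7308 counts), 106 CPM in diabetes 2, 10.5 CPM in curcumin 1, 3.40 CPM in control 1 and 1.38 CPM in diabetes 1 (35 counts). The diabetes and curcumin groups overlapped, and curcumin 2 lay 125-fold above diabetes 1. Among the 22 members that reached 10 CPM in some library and had counts in control 1, diabetes 1 and curcumin 2 alike, Mmp2 was the only one that differed by more than 10-fold between these 3 libraries. Col1a1 (947 CPM) and Fn1 (1128 CPM), a collagen and fibronectin that MMPs cut, were also highest in curcumin 2. No other gene of the substrate list described below was. The collagens Col1a2 and Col3a1 were at 210 and 46.4 CPM there, and at 445 and 1512 CPM in diabetes 2. A list of 7 fibroblast genes, Col1a1 among them, summed to 1243 CPM in curcumin 2 and to 3661 CPM in diabetes 2. Col1a1 alone held 947 CPM of the sum in curcumin 2. Dcn, Dpt, Pi16, Lum and Col3a1 were highest in diabetes 2, and Pdgfra was highest in control 1, at 160 CPM. The part of fibroblasts in the Mmp2 values was not tested.

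Mmp9, a gelatinase best known from neutrophils and macrophages, was at 90.9 CPM in curcumin 1 (2528 counts) and at 1.32 CPM in curcumin 2, against 1.53 and 1.81 CPM in diabetes and 3.77 CPM in control 1. Curcumin 1 alone was high, and curcumin 2 lay below both diabetic libraries. The 6 neutrophil marker genes summed to 6.15 CPM in curcumin 1 and to 30.1 CPM in diabetes 2, the macrophage list to 324 and 2712 CPM, and the smooth muscle list to 43521 and 340 CPM. S100a8 alone held 22.1 CPM of the neutrophil sum in diabetes 2. Of these lists only that of smooth muscle was highest in the same library as Mmp9. A list of 5 mesothelium genes was also highest in curcumin 1, at 440 CPM, of which the gene Krt19 held 433 CPM. The part of these cell types in the Mmp9 values was not tested. The fitted log2 fold change of curcumin over diabetes was 4.66 (SE 1.78), and −0.26 without curcumin 1.

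Membrane-type MMPs are anchored in the cell surface, and Mmp14, the activator of pro-MMP2, had the smallest range of the MMPs that reached 10 CPM in some library. Its levels were 110 CPM in control 1, 113 and 62.6 CPM in diabetes and 107 and 183 CPM under curcumin. The highest library was 2.92 times the lowest, and the groups overlapped. Mmp15 was at 46.6 and 12.0 CPM under curcumin, 9.67 and 11.0 CPM in diabetes and 22.9 CPM in control 1. Both treated libraries were above both diabetic ones, but curcumin 2 exceeded diabetes 2 by little. Mmp17, a membrane-type MMP held by a lipid anchor, was at 69.1 CPM in curcumin 1 and at 1.54 to 3.34 CPM in the other 4 libraries. Mmp16 had 0 counts in both diabetic libraries, 34 counts in control 1 (1.26 CPM), 153 in curcumin 1 (5.50 CPM) and 61 in curcumin 2 (1.44 CPM). Diabetes 1 held 0 counts for 16 of the 46 members, the most of any library, and 1292 genes with 1 to 5 counts, against 4216 to 19751 such genes in the other libraries, which limits what its zeros show. Mmp24 and Mmp25 had at most 16 counts in any library.

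The remaining MMPs were mostly highest in diabetes 2. Mmp19, a secreted MMP of stroma and myeloid cells, was at 102 CPM in diabetes 2 (2587 counts), 0 counts in diabetes 1, 5.57 and 1.04 CPM under curcumin and 0.296 CPM in control 1 (8 counts). Mmp28 (epilysin) was at 26.2 CPM in diabetes 2, 1.49 CPM in diabetes 1, 16.9 and 0.990 CPM under curcumin and 3.11 CPM in control 1. Mmp23 was at 28.7 CPM in diabetes 2, 2.51 CPM in diabetes 1, 16.0 and 5.89 CPM under curcumin and 3.85 CPM in control 1. In these 3 genes diabetes 1 was below the control and diabetes 2 above it. Mmp11 (stromelysin-3), which is activated inside the cell by furin, followed the same order with 16.1 CPM in diabetes 2, 3.26 CPM in diabetes 1, 9.92 and 5.99 CPM under curcumin and 5.70 CPM in control 1. Its exons overlap those of Chchd10 on the opposite strand, which held 525 to 3928 counts, and the counting's strand setting is not given in the sources used here. Mmp21 had at most 5 counts.

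**Figure D3:**
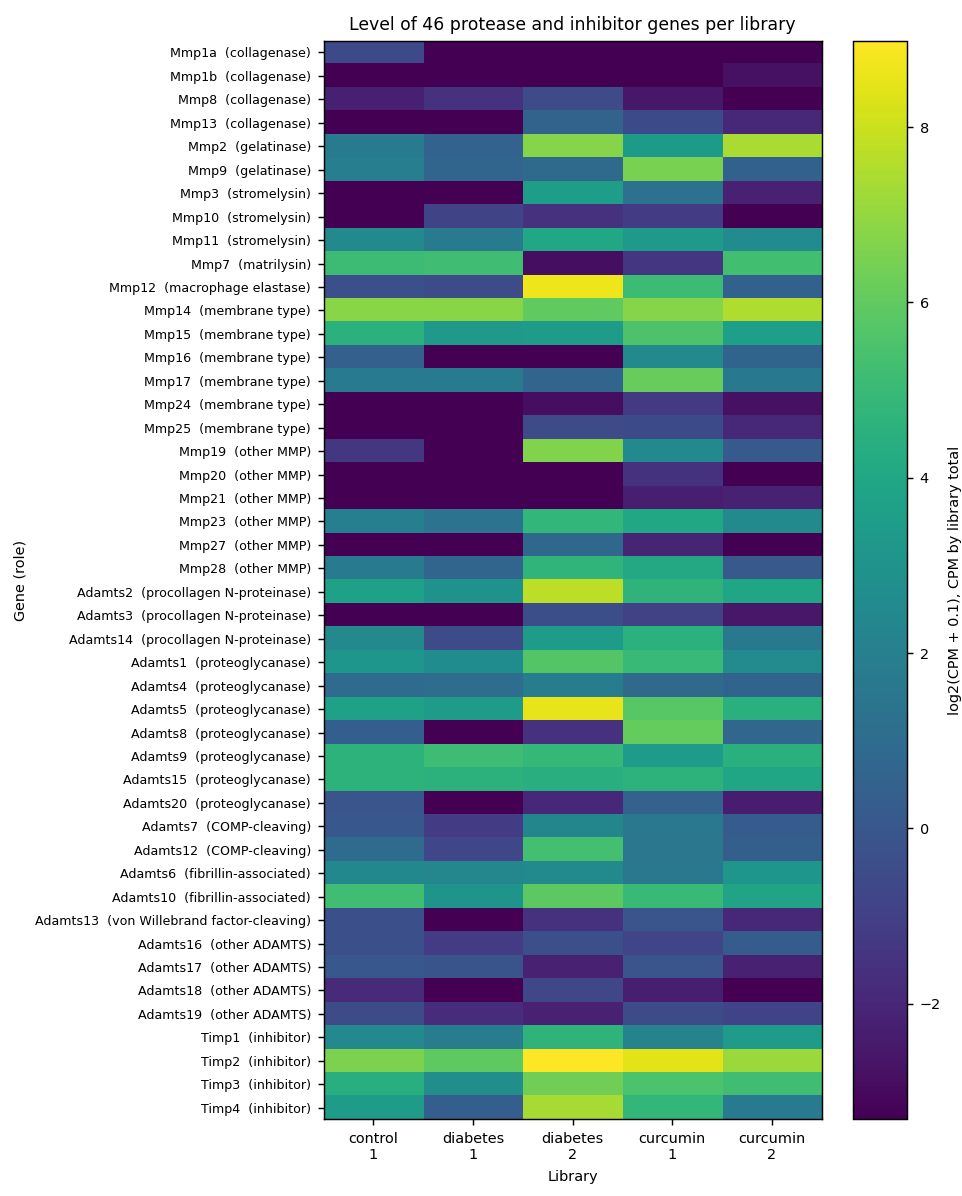
Level of all 46 genes, as log2(CPM + 0.1) by colour, in the 5 libraries (columns), ordered by role from collagenases through ADAMTS proteases to TIMPs. Bright cells of Mmp12, Mmp19, Adamts2, Adamts5 and Timp4 stand in the diabetes 2 column, and those of Mmp9, Mmp17 and Adamts8 in the curcumin 1 column.

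The ADAMTS proteases that trim fibrillar procollagen, Adamts2, Adamts3 and Adamts14, were not alike. Adamts2 was at 218 CPM in diabetes 2 (5539 counts), 7.74 CPM in diabetes 1, 25.8 and 15.6 CPM under curcumin and 13.0 CPM in control 1. Both treated libraries lay between the diabetic ones, which were 28.2-fold apart. Adamts14 was highest in curcumin 1, at 23.3 CPM against 3.04 CPM in curcumin 2, 0.629 and 10.8 CPM in diabetes and 5.51 CPM in control 1. Adamts3, which processes the lymphatic growth factor VEGF-C, had at most 17 counts.

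Among the proteoglycanases, Adamts5, the main aggrecanase of mouse cartilage, was at 384 CPM in diabetes 2 (9733 counts) and 11.0 CPM in diabetes 1. It was at 55.9 and 22.1 CPM under curcumin and 13.1 CPM in control 1, so diabetes 2 stood alone. Adamts1, its neighbour on chromosome 16, was also highest in diabetes 2 but not alone, with 52.4 and 6.29 CPM in diabetes, 32.2 and 5.94 CPM under curcumin and 8.70 CPM in control 1. Its lowest library was curcumin 2. Adamts8 was at 67.4 CPM in curcumin 1 (1876 counts), 1.56 CPM in curcumin 2, 1.18 CPM in control 1, 0.236 CPM in diabetes 2 (6 counts) and 0 counts in diabetes 1. Its neighbour on chromosome 9, Adamts15, was the member with the smallest range, at 24.7 CPM in control 1, 23.6 and 21.2 CPM in diabetes and 25 and 15.3 CPM under curcumin. Adamts9, a versican-cleaving protease, was at 36.0 and 29.3 CPM in diabetes, 10.7 and 22.4 CPM under curcumin and 24.8 CPM in control 1. The diabetic libraries lay above the control and the treated ones below it. Adamts4 followed the same order, at 2.00 and 3.51 CPM in diabetes, 1.83 and 1.49 CPM under curcumin and 1.85 CPM in control 1, but control 1 (50 counts) and curcumin 1 (51 counts) were close. With TMM scaling, which adjusts totals for the makeup of each library, the treated libraries of Adamts4 and Adamts9 no longer both lay below the control. Adamts20 had at most 38 counts.

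Of the other ADAMTS genes, Adamts12, which cuts cartilage oligomeric matrix protein, was at 40.2 CPM in diabetes 2, 0.511 CPM in diabetes 1, 2.84 and 1.23 CPM under curcumin and 1.85 CPM in control 1. Adamts7, with the same substrate, reached 4.96 CPM in diabetes 2 and 0.354 CPM in diabetes 1. Adamts10, which binds fibrillin in microfibrils, was at 59.7 and 8.29 CPM in diabetes, 31.0 and 14.6 CPM under curcumin and 36.4 CPM in control 1. Adamts6, its relative, kept to 2.91 to 8.79 CPM in the 5 libraries. Adamts13, the liver-derived protease of von Willebrand factor, and Adamts16, Adamts17, Adamts18 and Adamts19 stayed below 1.1 CPM in every library.

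All 4 TIMPs were highest in diabetes 2. Timp2, which also serves in the activation of pro-MMP2 by MMP14, was at 507 CPM in diabetes 2 (12870 counts), 61.8 CPM in diabetes 1, 355 and 140 CPM under curcumin and 94.4 CPM in control 1. Timp4, known for its high level in fat, was at 163 CPM in diabetes 2, 1.18 CPM in diabetes 1 (30 counts), 28.4 and 3.16 CPM under curcumin and 10.6 CPM in control 1. The summed adipocyte, endothelium and neutrophil markers each had this same order of the 5 libraries, as did Adamts12. The order is therefore not particular to adipocytes or to Timp4. The part of these cell types in the Timp4 values was not tested. Timp3, the matrix-bound inhibitor, was at 78.4 and 6.72 CPM in diabetes, 45.8 and 37.0 CPM under curcumin and 20.8 CPM in control 1. Timp1, the inducible member, was at 25.9 and 3.61 CPM in diabetes, 4.42 and 10.8 CPM under curcumin and 5.51 CPM in control 1. For each TIMP the treated libraries lay between the 2 diabetic ones, which were 8.20-fold apart for Timp2 and 139-fold apart for Timp4. Timp1, Timp3 and Timp4 lie within the synapsin genes Syn1, Syn3 and Syn2. Timp4 shares exon bases with Syn2 on the opposite strand, which held 304 counts in diabetes 2 and 438 in diabetes 1 while Timp4 held 4147 and 30.

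**Figure D4:**
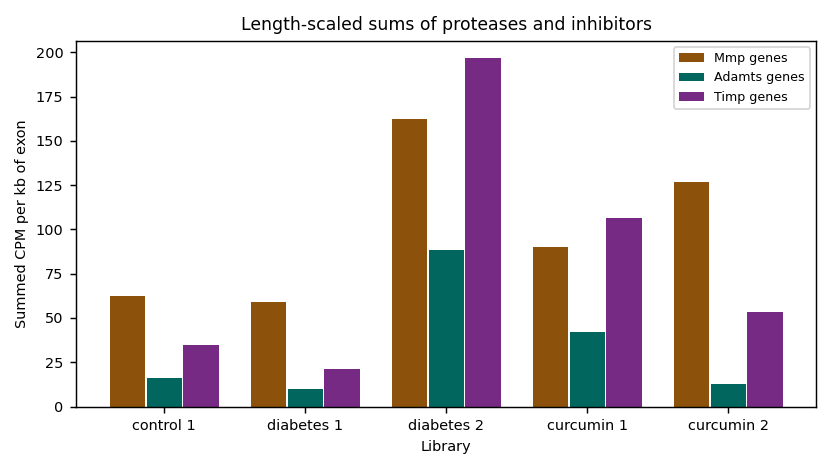
Summed CPM per kilobase of exon of the 23 Mmp, 19 Adamts and 4 Timp genes (bars) in each library. With the length of all exons of a gene, the Timp sum exceeds the Mmp sum in diabetes 2 and curcumin 1. It lies below the Mmp sum in control 1, diabetes 1 and curcumin 2. The order in diabetes 2 depends on the length used for Mmp12.

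Levels of different genes were compared as CPM per kilobase of exon (length of all exons of a gene in GENCODE M21). Mmp7 led the members in control 1 (31.9 CPM per kb) and diabetes 1 (34.1 CPM per kb), Timp2 in diabetes 2 (130 CPM per kb) and curcumin 1 (91.2 CPM per kb), and Mmp2 in curcumin 2 (51.1 CPM per kb). Summed per family, Mmp genes stood at 1.79 times the Timp genes in control 1, 2.83 times in diabetes 1 and 2.39 times in curcumin 2. The ratio was 0.825 in diabetes 2 and 0.844 in curcumin 1. With these lengths the order split the libraries of both replicated groups. The value of diabetes 2 depends on the length of Mmp12, 7.24 kb against 1.07 to 3.29 kb for the other cluster genes. A shorter length would raise both that ratio and the Mmp12 level there (55.5 CPM per kb), and other lengths were not tried. Adamts genes stood at 0.235 to 0.485 times the Timp genes in all 5 libraries.

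Diabetes 2 was the highest library for 23 of the 46 members, curcumin 1 for 12, curcumin 2 for 7, and control 1 and diabetes 1 for 2 each. The shares of diabetes 2 and curcumin 1 were 50% and 26.09%, against 18.09% and 37.35% of the 53895 genes with a count. Among the 25 members that reached 10 CPM they were 60% and 24%, against 30.61% and 25.84% of the 13125 genes that did. Between the diabetic libraries, 19 of 23 members with at least 10 counts in both were higher in diabetes 2, by a median of 8.20-fold over the 23, against 50.7% of 15908 genes and 1.01-fold. Between the curcumin libraries, 23 of 29 were higher in curcumin 1, against 61.9% of 19555 genes.

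The comparison of curcumin with untreated diabetes asked what the treatment changes in this model. No member passed an adjusted p of 0.05 in edgeR's quasi-likelihood test, as no gene of the 29855 tested did (0% called). At an unadjusted p under 0.05 there were 4 of the 42 tested members (Mmp16, Adamts8, Mmp17 and Mmp9) and 696 genes. limma-voom called 0 genes (361 at an unadjusted p under 0.05), and DESeq2 called 95. Of the 42, 16 had a positive and 25 a negative fitted log2 fold change, with Mmp1a at 0 because it had no counts in either group. The split turned to 23 positive and 19 negative with limma-voom (median 0.22) and to 22 and 20 with the replicate number as a block (median 0.051). In edgeR without the block their median was −0.46, against 0.05 for all genes tested, and −0.54 with members at 0 in a whole group set at the floor of 3 counts per library. Both treated libraries lay above both diabetic ones for 4 tested members (Mmp15, Mmp16, Adamts8 and Adamts19) and below them for 3 (Mmp8, Adamts4 and Adamts9). The same held for 17.9% of all genes above and 9.72% below, so the members' shares of 9.52% and 7.14% were no larger. With TMM-scaled levels Mmp17 joined the first list.

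For the members with the smallest p whose libraries did not overlap, Mmp16 (ENSMUSG00000028226) averaged 3.47 ± 2.87 CPM under curcumin (SD, n = 2) against 0 counts in diabetes. With 3 counts per library as the level of a zero, it was at least 29.4-fold higher, with an adjusted p of 0.852 in edgeR. This bound holds only at that level, and the few low counts in diabetes 1 limit what its zero shows. The bound was 12.2-fold without curcumin 1 and 46.6-fold without curcumin 2. Adamts8 (ENSMUSG00000031994) averaged 34.5 ± 46.6 CPM and in diabetes 0.118 ± 0.167 CPM (SD, n = 2 each), which gave a log2 fold change of 7.97 (SE 2.61, adjusted p = 0.852 in edgeR), which was 3.71 without curcumin 1 and 12.98 without diabetes 2, where the diabetic level is 0. DESeq2 called both genes, with an adjusted p of 0.0187 for Mmp16 and 0.0162 for Adamts8. The adjusted p over the alternatives ran up to 1 for each. Mmp15 (ENSMUSG00000031790) averaged 29.3 ± 24.5 CPM against 10.3 ± 0.967 CPM (SD, n = 2 each). Its log2 fold change was 1.43 (SE 0.72), 0.30 without curcumin 1 and 2.03 without curcumin 2. On the lower side, Adamts9 (ENSMUSG00000030022) averaged 16.6 ± 8.22 CPM against 32.6 ± 4.69 CPM (SD, n = 2 each). The log2 difference was −0.94 (SE 0.59), −0.44 without curcumin 1 and −1.72 without curcumin 2. Adamts4 (ENSMUSG00000006403) averaged 1.66 ± 0.246 CPM against 2.76 ± 1.06 CPM (SD, n = 2 each). The log2 difference was −0.78 (SE 0.97) and −0.19 without diabetes 2. None of the 5 differences passed edgeR's threshold, with an adjusted p of 0.852 to 0.902.

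**Figure D5:**
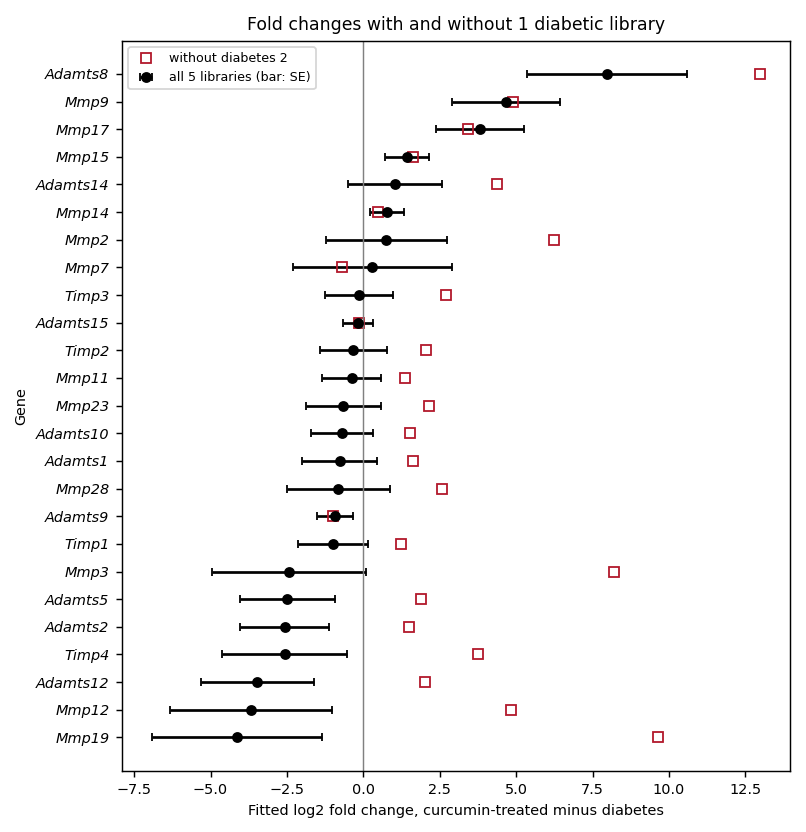
Fitted log2 fold change of curcumin over diabetes for the 25 members that reach 10 CPM in some library, from all 5 libraries (black points with standard errors) and without diabetes 2 (open squares). Members with negative values such as Mmp12, Adamts5 and Timp4 have positive values without that library, while Mmp9, Mmp15, Mmp17, Adamts9 and Adamts15 keep their sign; squares of Adamts8, Mmp3 and Mmp19 depend on the prior count because diabetes 1 holds 0 counts.

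The direction of many members rested on diabetes 2. Of the 39 tested members that had a value without it, 20 changed sign. The share of all tested genes that changed sign was not determined, so this count does not set the members apart. The median of the members turned from −0.46 to 2.05, while that of all genes was 0.27. With members at 0 set at the floor, the turned median was 1.76. Without diabetes 2, Mmp12 went from −3.68 to 4.83, Adamts5 from −2.49 to 1.87, Adamts2 from −2.57 to 1.49 and Timp4 from −2.57 to 3.74 on the log2 scale. Mmp2 went from 0.75 to 6.24, to −2.59 without curcumin 2 and to −0.23 without diabetes 1. Mmp17 went from 3.82 (SE 1.43) to 3.42, and to 0.45 without curcumin 1.

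The comparison of diabetes with the control had no called member in edgeR and no called gene (0% of 29855), with 1 member, Mmp16, and 440 genes at an unadjusted p under 0.05. limma-voom called 0 genes (285 at an unadjusted p under 0.05), and DESeq2 called 56 genes and 1 member, Mmp3, with an adjusted p of 1.2e-05. The fitted value was positive for 29 of 42 members and negative for 13, with a median of 1.12 against 0.07 for all genes. This comparison shares the diabetic libraries with the preceding one. In 20 of the 46 members diabetes 1 lay below control 1 and diabetes 2 above it, among them all 4 TIMPs, Mmp2, Mmp12, Adamts2 and Adamts5. The share of all genes with this order was not determined, so the count does not set the members apart. Both diabetic libraries were above the control for 4 tested members (Mmp8, Mmp10, Adamts4 and Adamts9), where 17.3% of all genes were, and below it for 10, where 34.5% of all genes were. With TMM-scaled levels Adamts15 left the second list. Adamts9 had a log2 fold change of 0.54 (SE 0.74) and Adamts4 of 0.75 (SE 1.22). With 3 counts per library as the level of a zero, Mmp16 was at least 10.7-fold lower, from 1.26 CPM in control 1 to 0 counts. The limit on the zero of diabetes 1 applies here too. Adamts8 differed by −3.08 (SE 2.45) and Adamts20 by −3.17 (SE 2.49), each from at most 6 diabetic counts per library. Without diabetes 1 these values were −2.07 and −2.17, and without diabetes 2, which left a diabetic level of 0, −8.09 and −7.62. The value of Adamts4 was 1.16 without diabetes 1 and 0.16 without diabetes 2. The adjusted p in edgeR was 1 for each of these 5. Without diabetes 2 the median of the members was −0.71. Of 39 members with a value, 22 then had the opposite sign and 4 (Mmp3, Mmp13, Mmp25 and Adamts3) had a value of 0, with no counts left in either group. The share of all genes that changed sign was not determined here either.

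The comparison of curcumin with the control likewise called no member and no gene in edgeR (0% of 29855), with 0 members and 112 genes at an unadjusted p under 0.05. limma-voom called 0 genes (100 at an unadjusted p under 0.05), and DESeq2 called 77 genes and 1 member, Mmp3. The fitted value was positive for 30 of the 42 members and negative for 12, with a median of 0.95 against 0.17 for all genes, and 0.70 with members at 0 in a whole group set at the floor. Both treated libraries lay above control 1 for 16 of the 42 tested members (38.1%), where 24.6% of all genes did, and below it for 7 (16.7%), where 34% of all genes did. The 16 were 9 Mmp genes, 5 Adamts genes, Timp2 and Timp3. With TMM-scaled levels the counts were 17 and 5 members, against 30.6% and 28.1% of all genes. Mmp2 (ENSMUSG00000031740) averaged 91.4 ± 114 CPM (SD, n = 2) against 3.40 CPM, a log2 fold change of 4.97 (SE 3.19), and 1.63 without curcumin 2. Mmp3 averaged 1.25 ± 1.59 CPM (SD, n = 2) against 0 counts, at least 11.2-fold higher. The bound rested on curcumin 1 and was 1.06-fold without it. Adamts8 had a log2 fold change of 4.90 (SE 3.01), and 0.63 without curcumin 1. On the lower side, Adamts9 differed by −0.40 (SE 0.71), Adamts10 by −0.57 (SE 1.20) and Adamts4 by −0.03 (SE 1.18), and the value of Adamts9 was 0.09 without curcumin 1. The adjusted p in edgeR was 1 for each of the 6.

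The genes that regulate these proteases, serve as their substrates or are related to them had no called member in edgeR either. Of 20 tested regulators (inhibitors, activators of the plasmin system, convertases and ADAMTS-like proteins), 8 were positive and 12 negative with curcumin over diabetes, with a median of −0.51. Among them, Adamtsl1, an ADAMTS-like matrix protein without a protease domain, was at 50.2 and 17.9 CPM under curcumin and at 0.825 and 3.55 CPM in diabetes (log2 fold change 3.84, SE 1.04), with control 1 at 10.9 CPM. Of 15 tested substrates, 6 were positive and 9 negative (median −0.17). Fbn2, a fibrillin, was at 38.8 and 5.92 CPM under curcumin and 2.51 and 0.158 CPM in diabetes (4.06, SE 1.59). Ncan, a proteoglycan, was at 27.9 CPM in diabetes 2 and at 0.0943 to 1.94 CPM elsewhere (−4.00, SE 2.24). Of 8 ADAM relatives, which are membrane-bound sheddases, 2 were positive and 6 negative (median −0.80). Adam8, a myeloid sheddase, was at 207 CPM in diabetes 2 and at 1.04 to 12.1 CPM elsewhere (−4.09, SE 2.10). Adam33 was at 145 CPM in curcumin 1 and at 8.05 to 31.2 CPM elsewhere (3.04, SE 1.13). The adjusted p in edgeR was 0.852 for each of these 5 genes. Diabetes 2 was highest for Ncan and Adam8 and curcumin 1 for Adamtsl1, Fbn2 and Adam33, the libraries in which Mmp12 and Mmp9 were highest.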

How the data were processed

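Whole-number counts per gene, not normalised, were deposited by the authors in 1 table of 78334 Ensembl genes with a column per library. Build GRCm39, FastQC and featureCounts are named in the submitters' processing notes, with the aligner, annotation release and strand setting not given in the sources used here. A symbol was found by gene ID for 51486 genes (65.7%), and the rule matched 46 members. CPM used library totals. The members and lists were chosen with earlier results of these data known. Counts of 29855 genes kept by filterByExpr (42 members; Mmp1b, Mmp20, Mmp21 and Mmp24 fell below it) were scaled by TMM and fitted in 1 model of the 5 libraries. The quasi-likelihood test of edgeR 4.0.16 was used (R 4.3.3, robust setting, the newer of its dispersion methods), with Benjamini-Hochberg adjustment, a threshold of 0.05 and 2 residual degrees of freedom. The lone control is assumed to have the spread of the replicated groups. Each SE is the log2 fold change divided by the root of F. The test was run on simulated counts whose spread between libraries was set far below that of these data. That run therefore does not show how the test performs here. Alternatives were other scalings and filters, DESeq2 1.42.0, limma-voom (limma 3.58.1), a fit without the control, a replicate block, the older quasi-likelihood method and the omission of 1 replicated library at a time. Members at 10 CPM in some library and all TIMPs are given in every library. Fitted values are given for up to 3 members per direction and comparison, with the smallest p among those whose libraries do not overlap and that reach 1 CPM, and for the 2 genes of each related list with the smallest p (1 of them is not reported here); the fitted values of Mmp2, Mmp9, Mmp12, Mmp17, Adamts2, Adamts5 and Timp4 for curcumin over diabetes were added after their values were seen. Promoters are RefSeq's, build GRCm38.p6; the printed ones were chosen after the letters were searched. GENCODE M21 (GRCm38) gave exon lengths and exon overlaps, and showed 13 members that overlap another gene on the opposite strand.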

Additional observations from a re-analysis of the deposited data

How the results depend on the processing

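DESeq2 was the only setting that called any gene: 95 for curcumin over diabetes (2 members), 56 for diabetes over control (1 member) and 77 for curcumin over control (1 member), against 0 in edgeR. Its log2 fold changes were 8.77 for Mmp16 (adjusted p = 0.0187) and 7.92 for Adamts8 (adjusted p = 0.0162) with curcumin over diabetes, and 18.72 for Mmp3 with curcumin over control (adjusted p = 0.000476), which depends on how a control count of 0 is fitted. The median of the members for curcumin over diabetes, −0.46, was 0.22 with limma-voom and 0.051 with the replicate block; the cause was not tested. Leaving out a library, it ran from −1.15 to 2.05, and the medians for diabetes over control from −0.71 to 1.74 and for curcumin over control from 0.25 to 1.29. With curcumin over control, Adamts4 ran from −0.079 to 0.00077 and was 0.013 without the low-count filter, and Adamts9 ran from −1.19 to 0.092. Scaling by library total moved the median of all genes for curcumin over control from 0.17 to 0.03. It turned the sign of Adamts10 and Adamts15 for diabetes over control, which differed by 0.12 and 0.0007, and other scalings that of Adamts17 for curcumin over diabetes. The labels give diabetes and curcumin libraries the numbers 1 and 2, but nothing says that a number pairs them: their deviations correlated at −0.49 across genes, and the replicate block called 0 genes, as did the crossed pairing, added after seeing the data. Depth limits the 13 members that stayed below 1 CPM in all 5 libraries.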
